A study of Mus musculus with 6 samples.

Results

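The 10 matrix glycoprotein genes followed were Fn1, Tnc, Sparc, Fbn1, Postn, Tgfbi, Thbs1, Thbs2, Dcn and Spp1. They were picked by name, by matching the Entrez gene numbers of the deposited table to mouse symbols, and are 10 of its 24454 genes. All 10 were found. These genes and the gene lists below were chosen with earlier results of these data known. Their counts, set beside the share of all genes, therefore only describe them and are not a test. The study measured total RNA, depleted of ribosomal RNA, in Py2T cells, an epithelial line derived from a mammary gland tumour of a mouse. There were 3 groups with 2 libraries each, called biological duplicates by the submitters. The PBS group received no hydrogen peroxide (0 µM), the C40 group was given 40 µM H2O2 and the I60 group 60 µM H2O2. The labels give all 3 groups as daily treatment for 4 months, with no engineered allele or transgene named. The C40 and I60 cells are lines kept under 1 dose each, and the labels do not say whether the 2 libraries of a group came from separately treated cultures. The p-values below therefore measure the spread between these libraries, and dose and line cannot be told apart.

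The extracellular matrix is the protein network that cells secrete and attach to. Fibronectin (Fn1) and fibrillin-1 (Fbn1) are structural glycoproteins that assemble into fibrils. Tenascin-C (Tnc), Sparc, the thrombospondins Thbs1 and Thbs2, periostin (Postn), Tgfbi and osteopontin (Spp1) are known mainly as modulators of how cells bind that network, many of them through integrins. Decorin (Dcn) is a small leucine-rich proteoglycan that binds collagen fibrils and TGF-beta. In carcinomas, much of this matrix is usually credited to stromal fibroblasts, and its production by the epithelial cells themselves is a familiar accompaniment of epithelial-mesenchymal transition.

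The promoters of 3 of these genes are printed because the genes took 3 different courses across the groups: Sparc was high in both treated lines, Spp1 was low in I60, and Tnc differed most between libraries of 1 group. Each is the 250 bases before the most upstream RefSeq transcript start, on the gene's strand, in build GRCm38.p6, and lies at chr11:55420081-55420330 (minus strand) for Sparc, chr5:104434861-104435110 (plus strand) for Spp1 and chr4:64047016-64047265 (minus strand) for Tnc. Capitals mark matches, on either strand, to 6 short motifs. The core promoter element searched was the TATA box, spelled TATAAA, and the general promoter element was the GC box, spelled GGGCGG. The E-box, bound by Snail, Zeb and other repressors or activators, was spelled CAGGTG. The sites of the AP-1 family, which answers to growth and stress signals, were spelled TGANTCA. The Runx family's site, known from bone genes, was spelled AACCACA, whereas the site of the TEAD family, partners of YAP and TAZ, was spelled GGAATG. No match overlapped another in these 3 promoters.
Sparc: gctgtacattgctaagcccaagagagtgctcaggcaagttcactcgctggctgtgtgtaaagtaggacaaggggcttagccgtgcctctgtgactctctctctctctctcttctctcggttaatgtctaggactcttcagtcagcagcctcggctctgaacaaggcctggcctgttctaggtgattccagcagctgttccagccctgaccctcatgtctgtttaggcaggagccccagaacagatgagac
Spp1: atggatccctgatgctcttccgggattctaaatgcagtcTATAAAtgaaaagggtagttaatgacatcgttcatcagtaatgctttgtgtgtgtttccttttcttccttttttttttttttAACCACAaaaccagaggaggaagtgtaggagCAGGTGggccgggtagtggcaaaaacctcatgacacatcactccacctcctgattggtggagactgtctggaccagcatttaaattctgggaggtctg
Tnc: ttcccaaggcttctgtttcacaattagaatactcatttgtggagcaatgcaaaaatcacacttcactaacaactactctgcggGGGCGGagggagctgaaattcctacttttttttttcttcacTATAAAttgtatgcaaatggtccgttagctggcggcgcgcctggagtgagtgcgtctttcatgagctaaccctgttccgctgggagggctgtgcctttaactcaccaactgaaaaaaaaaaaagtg
The RefSeq promoter table held 7 of the 10 members. Spp1 carried the TATA box, the Runx site and the E-box, which occur in 12.4%, 4.40% and 17.2% of the 32851 promoters of that table when cut to the same length. Tnc carried the GC box, found in 32.7% of them, and the TATA box. None of the 6 motifs was in this window of Sparc. Among the other members in the table, Fbn1 and Tgfbi carried 1 GC box each, Thbs2 carried a TATA match on the opposite strand, and Postn carried none. The TATA matches lay 211 to 206 bases before the start in Spp1 and 126 to 121 before it in Tnc and Thbs2. All matches describe the letters in the window and show neither binding nor use as a core promoter.

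The libraries held 48113692 to 60260520 reads, recovered as whole numbers from the deposited CPM, the reads of a gene per 1000000 reads counted. Replicates differed more in C40 than elsewhere: 1022 of 11524 tested genes differed by over 2-fold between the C40 libraries, against 223 in PBS and 217 in I60. Epithelial markers summed to 7479 to 8279 CPM in PBS, 3783 to 3899 in C40 and 3110.2 to 3168 in I60. Of 13, 12 reached 1 CPM in both PBS libraries, against 5 or 6 in I60. The I60 sum was mostly Krt8 (1707 and 1574 CPM) and Krt18 (1443 and 1513), which were not called in any comparison. Of 12 tested, 9 fell in C40 and 10 in I60 against PBS, beside 9.02% and 13.1% of all tested genes. In I60 against C40, 9 were lower and 1 higher, beside 5.73% and 3.51% of all tested genes. Mesenchymal markers summed to 66.2 to 97.6 CPM in PBS, 2559 to 3369 in C40 and 3918 to 4476 in I60. Of 10 fibroblast markers, Lum, Fap and Thy1 had no read in any library. The 4 that could be tested rose in both treated lines. Of these 4, Col3a1, Col1a1 and Pdgfrb reached 1 CPM, the level for testing, only in treated libraries. They could enter the count only by being higher there. Over all tested genes, 11.2% were called higher in C40 and 13.9% in I60. The fibroblast list summed to 6.32 to 7.35 CPM in PBS, 184 to 728 in C40 and 433 to 467 in I60. Most of it was Col3a1 in the treated lines. Macrophage and leukocyte markers summed to 20.7 to 21.4, 6.46 to 10.3 and 30.8 to 39.4 CPM, with Adgre1, C1qa, C1qb and Cd3e at 0. Endothelial markers stayed at or below 1.27 CPM in sum and adipocyte markers below 0.93. The mesenchymal and fibroblast sums were higher in the 2 treated lines than in PBS, as Sparc was, and their part in that result was not tested. Dcn was 18.6 times lower in I60 than in C40 on pooled reads. The mesenchymal sum was higher in I60 but mostly Vim, at 3055 and 2229 CPM in C40 and 3765 and 4286 in I60. Of the 9 mesenchymal markers, 8 rose and 0 fell in C40 against PBS, and 6 rose and 2 fell in I60 against PBS. Among those that rose, Cdh2 and Snai2 in C40 and Cdh2 in I60 passed the filter only through treated libraries. The 2 that fell in I60 were Twist2 (log2 -1.46, limma adjusted p = 0.00888) and Prrx1 (-0.91, 0.0388). Twist2 and Prrx1 were also called lower in I60 than in C40, where no mesenchymal marker was called higher. Their relation to Dcn was not tested. In a bulk library, fewer cells expressing a gene and less RNA per cell cannot be told apart.

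Sparc rose and Thbs1 fell in both treated lines, while Fn1, Tgfbi and Dcn rose in C40 and Spp1 fell in I60. Of the 10 members, 8 reached 1 CPM in at least 2 libraries and were tested; Thbs2 and Postn stayed below that level. Tests used limma on log2(CPM + 0.5) over all 11524 genes, and a call is a Benjamini-Hochberg adjusted p below 0.05. In C40 against PBS, 4 of the 8 rose (Dcn, Fn1, Sparc, Tgfbi), 1 fell (Thbs1) and 3 did not pass; over all tested genes 20.2% were called, 11.2% higher and 9.02% lower. In I60 against PBS, 1 rose (Sparc), 2 fell (Spp1, Thbs1) and 5 did not pass, where 27.1% of all genes were called, 13.9% higher and 13.1% lower. The median difference of the 8 was 1.55 on the log2 scale in C40 and 0.26 in I60, beside -0.024 and -0.002 over all genes tested. Dcn passed the filter only through C40, where it was high, so these counts and medians describe the 8 and are not offered as evidence on all 10.

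**Figure D1:**
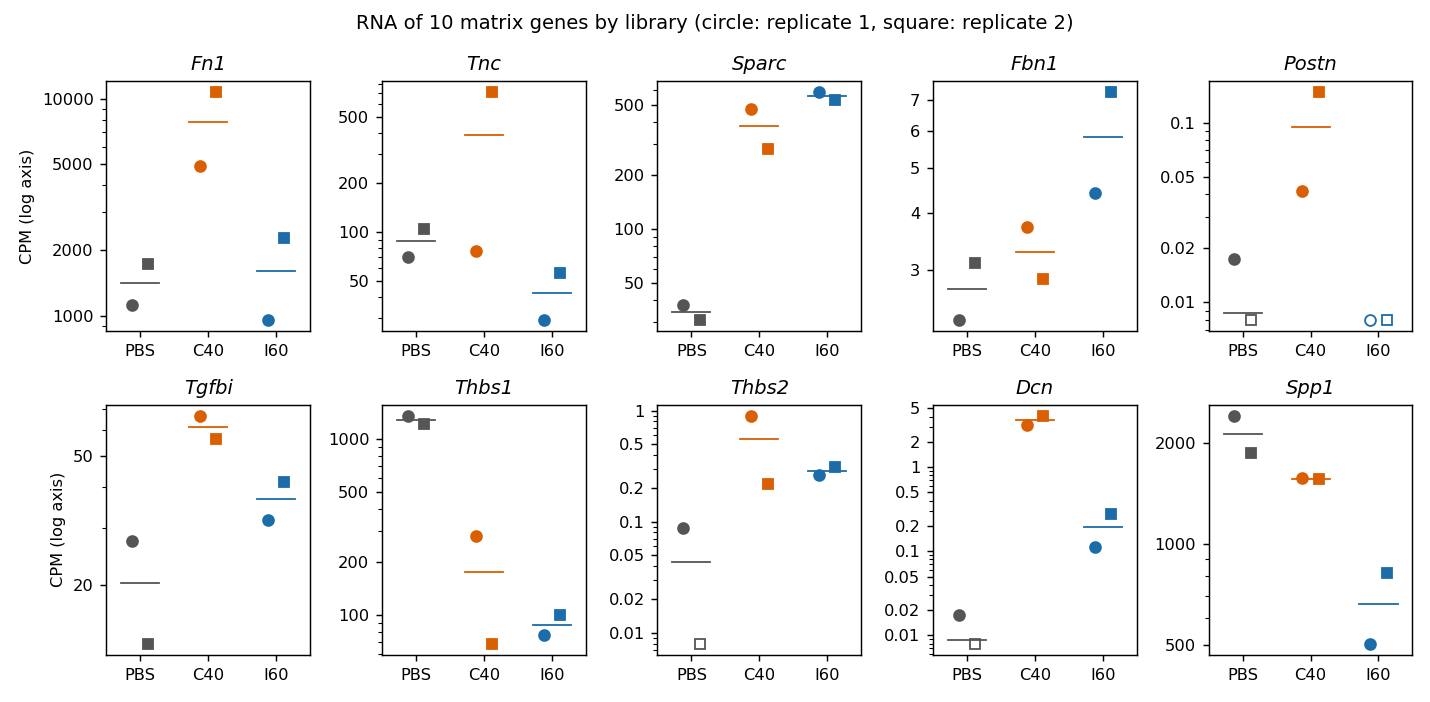
CPM of each of the 10 genes in the 6 libraries, on log axes that differ between panels; circles are replicate 1, squares replicate 2, bars the group mean, and open symbols at the bottom of a panel mark libraries with 0 reads. Sparc sits at 31.0 to 37.6 CPM in PBS and at 282 to 585 in the treated lines, and Tnc at 76.3 and 709.7 in the 2 C40 libraries.

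Fibronectin, the glycoprotein that many integrins hold and that other matrix proteins assemble on, showed the largest difference in CPM of the 10 genes. Fn1 (chromosome 1, 71585473 to 71653280 in GRCm38) was at 1119.8 and 1725 CPM in PBS, 4869.7 and 10677 in C40, and 958 and 2269 in I60. Both C40 libraries lay above every other library, while the PBS and I60 libraries overlapped. Fn1 rose 5.19-fold in C40 against PBS (log2 2.37, SE 0.51, limma adjusted p = 0.0183), from 1422 ± 428 to 7773 ± 4106 CPM (SD, n = 2). The I60 mean was 1613 ± 927 CPM, with a log2 difference from PBS of 0.08 (SE 0.51, adjusted p = 0.919). The C40 call was lost without PBS replicate 1 (adjusted p = 0.159), without PBS replicate 2 (0.0686) and without the filter on low values (0.0619), and the log2 difference ran from 1.81 to 2.94 over the 6 leave-outs. In C40 replicate 2 Fn1 alone took 1.07% of all reads, against 0.112% in PBS replicate 1.

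Fibrillin-1, the backbone of microfibrils, stayed at a low level throughout. Fbn1 (chromosome 2, 125300594 to 125506485) was at 2.35 and 3.12 CPM in PBS, 3.72 and 2.87 in C40, and 4.40 and 7.28 in I60. Both I60 libraries lay above the rest, and C40 overlapped PBS. The difference in I60 was 0.94 on the log2 scale (SE 0.31, adjusted p = 0.065) and did not pass. It passed without C40 replicate 1 or 2 (0.0436 and 0.0435), with only PBS and I60 in the fit (0.0437), and with DESeq2 on the recovered reads (0.0331). The difference in C40 was 0.23 (adjusted p = 0.634). Gm9913, annotated on the opposite strand, shares 2442 exonic bases with Fbn1, and the sources used here do not give the strand setting of the counting.

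Tenascin-C, a matrix protein known for loosening cell adhesion to fibronectin, gave no call and the widest replicate gap. Tnc (chromosome 4, 63959785 to 64047015) was at 70.7 and 104.6 CPM in PBS, 76.3 and 709.7 in C40, and 29.1 and 56.0 in I60. C40 replicate 1 lay within the PBS range and was 9.30-fold below C40 replicate 2, and both I60 libraries lay below all others. That gap between the C40 libraries was wider than for 99.8% of tested genes. The log2 difference in C40 was 1.43 (SE 0.92, adjusted p = 0.307); it was 3.04 without C40 replicate 1 (adjusted p = 0.00174) and -0.17 without C40 replicate 2 (0.797). In I60 the difference was -1.08 (SE 0.92, adjusted p = 0.428), and it passed when C40 replicate 1 or 2 was left out (0.036 or 0.0371) or only PBS and I60 were fitted (0.0378). The C40 mean, 393 ± 448 CPM (SD, n = 2), had an SD larger than itself, against 87.6 ± 23.9 in PBS and 42.6 ± 19.0 in I60.

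Sparc, a secreted collagen-binding protein often used as a mesenchymal marker, rose in both treated lines and held under every left-out library. Sparc (chromosome 11, 55394159 to 55420080) was at 37.6 and 31.0 CPM in PBS, 471 and 282 in C40, and 585 and 532 in I60. The 3 groups did not overlap, with PBS lowest and I60 highest. The rise was 10.5-fold in C40 (log2 3.40, SE 0.26, adjusted p = 0.000291) and 16.1-fold in I60 (log2 4.01, SE 0.26, adjusted p = 5.97e-05). Group means were 34.3 ± 4.66, 376 ± 134 and 558 ± 37.5 CPM (SD, n = 2). Its promoter, printed above, held none of the 6 motifs.

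Thrombospondin-1, an adhesion modulator that binds CD47 and can activate latent TGF-beta, was the member that fell most. Thbs1 (chromosome 2, 118111876 to 118127133) was at 1348 and 1208 CPM in PBS, 281 and 68.9 in C40, and 76.5 and 99.9 in I60. PBS stood above all 4 treated libraries, and the 2 treated groups overlapped. The fall was 14.5-fold in I60 (log2 -3.86, SE 0.57, adjusted p = 0.00288), called under every left-out library, and 9.13-fold in C40 (log2 -3.19, SE 0.57, adjusted p = 0.00904). Group means were 1278 ± 98.8, 175 ± 150.2 and 88.2 ± 16.5 CPM (SD, n = 2). The C40 call was lost without PBS replicate 1 (0.0828) or PBS replicate 2 (0.062); the log2 difference was -4.20 without C40 replicate 1 and -2.18 without C40 replicate 2, whose levels differed 4.09-fold.

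The related Thbs2 (chromosome 17, 14665500 to 14694262), which lacks the TGF-beta-activating sequence, went the other way at a trace level. It had 5 and 0 reads in PBS, 43 and 12 in C40, and 14 and 17 in I60. All 4 treated libraries lay above both PBS libraries. On pooled reads C40 was 12.6 times PBS (95% interval 5.09 to 40.3) and I60 6.76 times (2.61 to 22.3), intervals that cover counting error only. Without the filter, limma gave adjusted p = 0.129 and 0.298.

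Osteopontin, a secreted phosphoprotein that binds CD44 and integrins, fell in I60. Spp1 (chromosome 5, 104435111 to 104441053) was at 2399 and 1859 CPM in PBS, 1571 and 1557 in C40, and 505 and 818 in I60. The 3 groups did not overlap, from PBS down to I60. The fall in I60 was 3.28-fold (log2 -1.72, SE 0.26, adjusted p = 0.00329) and was called under every left-out library; the difference in C40 was -0.43 (SE 0.26, adjusted p = 0.28). Its group means were 2129 ± 382, 1564 ± 9.70 and 661 ± 222 CPM (SD, n = 2). A further transcript model on the same strand, Gm42793, shares 309 exonic bases with Spp1.

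Tgfbi, a fasciclin-domain protein named for its induction by TGF-beta, rose in C40. Tgfbi (chromosome 13, 56609586 to 56639359) was at 27.3 and 13.2 CPM in PBS, 66.4 and 56.5 in C40, and 31.8 and 41.7 in I60. The groups did not overlap, with I60 between PBS and C40. The rise in C40 was 3.16-fold (log2 1.66, SE 0.35, adjusted p = 0.0164) and was lost without PBS replicate 2 (log2 1.15, adjusted p = 0.0681). Group means were 20.3 ± 10.0, 61.4 ± 7.05 and 36.8 ± 6.97 CPM (SD, n = 2). In I60 the difference was 0.92 (SE 0.35, adjusted p = 0.0954), and passed without PBS replicate 1 (log2 1.43, adjusted p = 0.0335) and with DESeq2 (0.0499). Its fasciclin relative periostin was close to absent. Postn (chromosome 3, 54359267 to 54391041) had 1 and 0 reads in PBS, 2 and 8 in C40, and none in I60, where a count of 0 allows up to 3 reads, or 0.0562 and 0.0553 CPM. On pooled reads C40 was 11.5 times PBS (95% interval 1.63 to 497), and without the filter limma gave adjusted p = 0.17.

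Decorin went from almost no reads in PBS to a low but steady level in C40. Dcn (chromosome 10, 97479500 to 97518163) had 1 and 0 reads in PBS, 151 and 220 in C40, and 6 and 15 in I60. In CPM these were 0.0175 and 0, then 3.14 and 4.05, then 0.112 and 0.276, so the 3 groups did not overlap. The rise in C40 was called with all 6 libraries (limma adjusted p = 0.000367), and its log2 difference ran from 2.84 to 3.16 over the leave-outs. The filter was set once, with all 6 libraries, and was not reset when a library was left out. Dcn reached 1 CPM only in the C40 libraries, so without either of them it would have failed the filter. On pooled reads C40 was 425 times PBS (95% interval 75.8 to 16834), a ratio resting on 1 PBS read. I60 was 22.9 times PBS (3.68 to 947) on pooled reads; limma on log2(CPM + 0.5) gave a difference of 0.44 (adjusted p = 0.235), and it passed with a pseudocount of 0.1 (0.0453), edgeR (0.0175) and DESeq2 (0.0182).

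**Figure D2:**
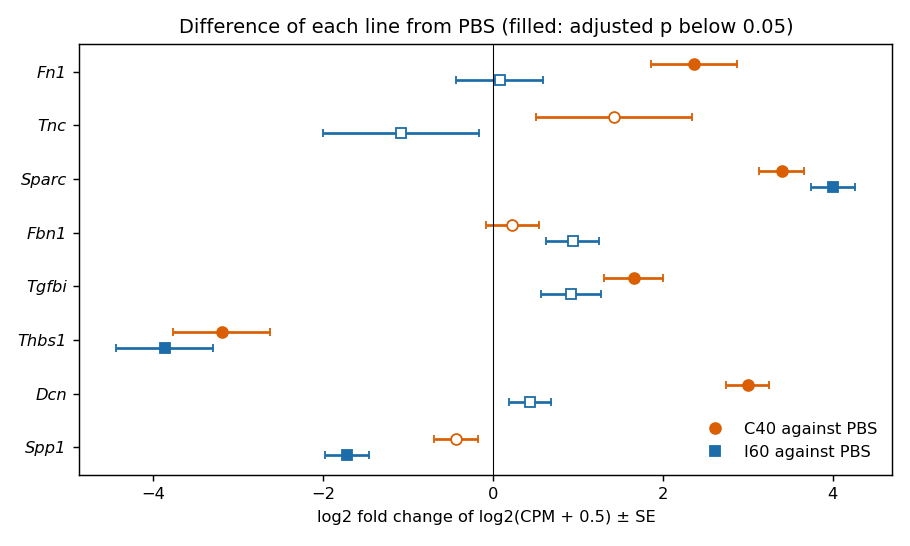
Log2 difference from PBS of the 8 tested genes in C40 and I60 (points) with 1 standard error on each side, as fitted by limma; filled symbols are called at adjusted p below 0.05. Sparc is above 3 and Thbs1 below -3 in both lines, whereas Fn1 is at 2.37 in C40 and 0.08 in I60.

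The 2 treated lines were then set against each other. Fn1, Dcn and Spp1 were lower in I60 than in C40, and no member was called higher; over all genes 9.23% were called, 3.51% higher and 5.73% lower. At an unadjusted p below 0.05, 1 of the 8 was higher and 4 were lower, and edgeR and DESeq2 called 0 higher. The share of all genes at that unadjusted level was not computed, so these 2 counts have no background and only describe the 8. Dcn was 18.6 times lower in I60 on pooled reads (95% interval 12 to 30.4), with limma log2 -2.56 (SE 0.25, adjusted p = 0.00113). Its log2 difference ran from -2.73 to -2.39 over the leave-outs, in which the filter was not reset. Fn1 was 4.89-fold lower (log2 -2.29, SE 0.51, adjusted p = 0.0355), but leaving out any library except C40 replicate 1 ended the call (adjusted p = 0.0577 to 0.231), as did dropping the filter (0.112) or fitting only C40 and I60 (0.0883). Spp1 was 2.43-fold lower (log2 -1.28, SE 0.26, adjusted p = 0.0255), but it was not called without either PBS library (0.0645 and 0.0653), without I60 replicate 1 (log2 -0.93, 0.156), without the filter (0.0851) and with only C40 and I60 fitted (0.0632).

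The remaining members did not pass between the treated lines. Sparc differed by 0.61 (adjusted p = 0.225), and by 0.98 without C40 replicate 1 (0.016). Thbs1 differed by -0.67 (adjusted p = 0.568), by 0.34 without C40 replicate 1 and by -1.68 without C40 replicate 2 (0.00267). Tnc differed by -2.51 (adjusted p = 0.167), and passed without C40 replicate 1 (-4.12, 0.000743) and with DESeq2 (0.0417). For Thbs1 and Tnc the outcome thus turned on which C40 library was kept. Tgfbi (-0.74, adjusted p = 0.276) and Fbn1 (0.71, 0.246) showed groups that did not overlap, with I60 lower for Tgfbi and higher for Fbn1. The share of all genes whose groups do not overlap was not computed. With 2 libraries a group, such a gap, here and above, only describes these libraries. Postn had no read in I60 and 10 in C40, a level 3.50-fold above a floor of 3 reads over the I60 group. That fold leaves out the counting error of the 10 reads, and without the filter limma gave adjusted p = 0.212.

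**Figure D3:**
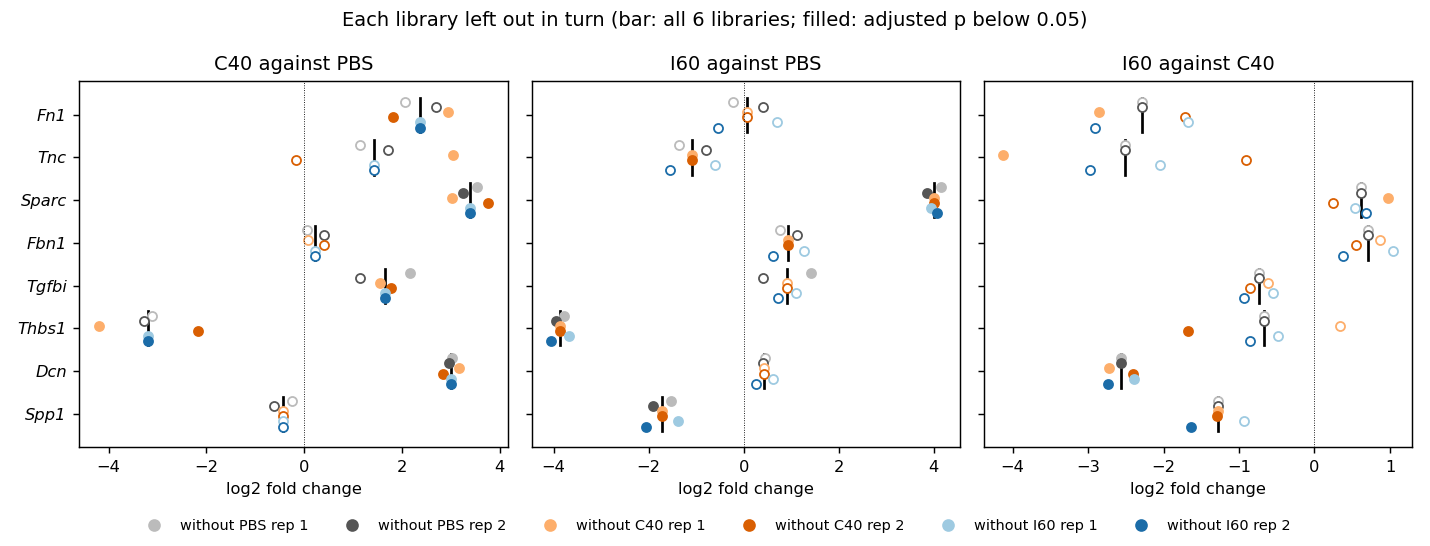
Log2 difference of each tested gene in each of the 3 comparisons with all 6 libraries (black bar) and with each library left out in turn (points, coloured by the library left out); filled points are called at adjusted p below 0.05. Sparc against PBS stays filled throughout, and Tnc in C40 against PBS runs from -0.17 to 3.04.

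Levels of different genes were compared as mean CPM per kilobase of annotated exon. In PBS, Spp1 led at 1292 per kb, followed by Thbs1 at 210.5 and Fn1 at 122, with Tnc (11.3) and Sparc (9.05) overlapping below them. In C40, Spp1 (949) and Fn1 (665) led; Sparc (99.4), Tnc (50.6), Thbs1 (28.8) and Tgfbi (16.3) came next, each overlapping its neighbour. In I60, Spp1 (401) was again first, ahead of Sparc (147) and Fn1 (138), which overlapped, and Thbs1 was at 14.5. Sparc was thus below Thbs1, Fn1 and Tnc in PBS and above all 3 in mean level in I60, though overlapping Fn1, while Spp1 headed all 3 orders despite its fall in I60. Fbn1, Dcn, Thbs2 and Postn were below 1 CPM per kb in every group.

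The makeup of the summed RNA of the 10 genes changed with it. The sum took 0.501% and 0.494% of reads in PBS, 0.734% and 1.34% in C40, and 0.219% and 0.382% in I60. C40 was above and I60 below both PBS libraries. Spp1 and Thbs1 together made up most of the sum in PBS, with 47.9% and 37.6% from Spp1 and 26.9% and 24.4% from Thbs1. Fn1 made up 66.3% and 79.9% in C40. Sparc made up 26.7% and 13.9% in I60, against 0.751% and 0.627% in PBS. Thbs1 fell to between 0.516% and 3.83% of the sum in the 4 treated libraries. The C40 and I60 sums followed Fn1, whose replicates differed 2.19-fold and 2.37-fold in those groups.

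**Figure D4:**
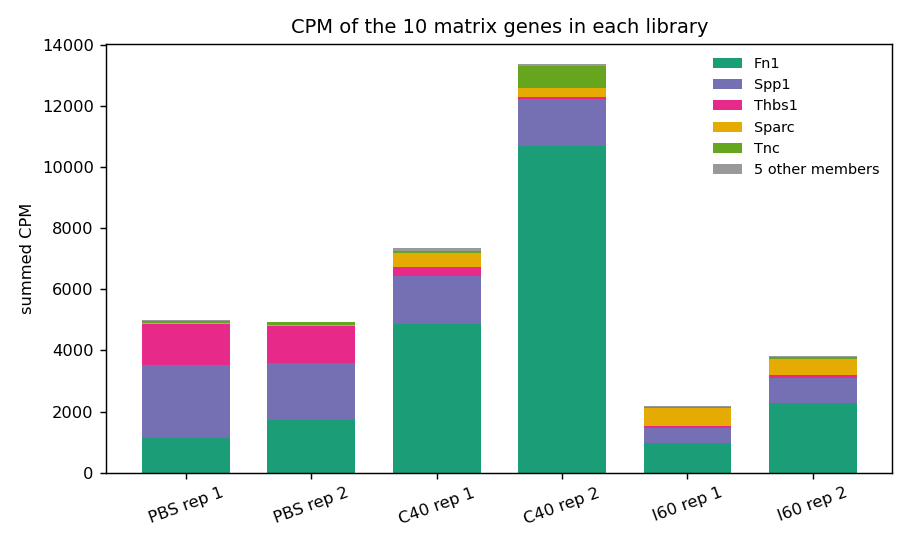
Summed CPM of the 10 genes in each library, split into Fn1, Spp1, Thbs1, Sparc, Tnc and the 5 other genes together. The C40 bars reach 7343 and 13358 CPM with Fn1 as their largest part, against 5005 and 4944 in PBS, where Spp1 is the largest part, and 2189 and 3824 in I60.

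Among other matrix glycoproteins, more were called higher than lower in each treated line. Of 51 further genes of this class, 24 were tested; C40 had 13 that rose and 1 that fell, and I60 had 13 and 3, where 11.2% of all tested genes were higher and 9.02% lower in C40, and 13.9% and 13.1% in I60. Of the 13, 7 in C40 and 6 in I60 were below 1 CPM in both PBS libraries, so they passed the filter only through treated libraries and could enter the count only by being higher there. The median differences of the 24, 1.42 and 1.10, lean upward for the same reason and describe only the genes that passed. The number rising in C40 was 8 without PBS replicate 2, and that in I60 was 8 without I60 replicate 2. Ccn4, a Wnt-induced matricellular protein, rose 68.0-fold in C40 (adjusted p = 0.000394) and 112-fold in I60 (0.000126), from 0.420 and 0.116 CPM in PBS. Thbs3, a relative of Thbs1, rose 3.0-fold (0.0201) and 5.28-fold (0.00267), opposite in direction to Thbs1. Ccn2, known as connective tissue growth factor, was the gene that fell in C40 (2.59-fold, adjusted p = 0.032), a call lost when any library but C40 replicate 1 was left out.

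Several genes of this class differed strongly between the 2 treated lines, where 2 were higher and 6 lower in I60 than in C40, beside 3.51% and 5.73% of all tested genes. Ltbp2, a fibrillin-binding relative of the latent TGF-beta binding proteins, was at 1.45 and 0.697 CPM in PBS, 56.7 and 46.8 in C40, and 0.468 and 0.682 in I60. It rose 34.1-fold in C40 (adjusted p = 0.000138) and was 48.7-fold lower in I60 than in C40 (0.000205). Igfbp7, an insulin-like growth factor binding protein of the matrix, followed the same course, at 16.3 and 16.4 CPM in C40 and below 0.23 in PBS and I60. Efemp2, the elastic-fibre protein fibulin-4, rose 14.3-fold in C40 (0.000192) and was 36.3-fold lower in I60 than in C40 (0.00014). Fibulin-2 (Fbln2) differed: it was at 656 and 606 CPM in PBS, 532 and 933 in C40, and 11.9 and 18.5 in I60, a 41.2-fold fall in I60 against PBS (3.62e-05). Smoc1, a Sparc-related calcium-binding protein, rose 14.7-fold in I60 (0.000505) and was higher in I60 than in C40 (log2 2.37, adjusted p = 0.0119), the last call being lost without I60 replicate 1 or 2; Aebp1 was likewise higher there (log2 0.94, 0.0145), with the same 2 losses.

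Decorin's relatives among the small leucine-rich proteoglycans were near absent in PBS. Of 12, only Bgn and Prelp could be tested, both through treated libraries alone, and Lum, Fmod, Kera, Epyc and Chad had no reads. Biglycan (Bgn), the closest relative of decorin, was at 0.0700 and 0.0498 CPM in PBS, 11.6 and 7.17 in C40, and 1.63 and 1.49 in I60. It stood highest in C40 and between the others in I60, the same order as Dcn, and on pooled reads was 155 times PBS in C40 (95% interval 74.9 to 386) and 26.2 times in I60 (12.4 to 66.1). Bgn was called in all 3 comparisons under every left-out library. Prelp rose in I60 (log2 2.45, adjusted p = 0.0458), a call lost without any 1 PBS or I60 library.

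Receptors for these proteins moved in both directions. The list also holds Ddr2, a collagen receptor, though none of the members is a collagen. Of 20, 17 were tested; C40 had 8 that rose and 5 that fell, and I60 had 4 and 6, with median log2 differences of 0.30 and 0.49; the shares over all genes are those given above. Of the genes that rose, 3 in C40 (Itgb3, Ddr2, Itgb8) and 1 in I60 (Itgb3) were below 1 CPM in both PBS libraries and passed the filter only through treated libraries. Leaving out PBS replicate 1 gave 3 and 3 in C40, and leaving out PBS replicate 2 gave 5 and 2; in I60, 8 rose when C40 replicate 1 or 2 was left out. Itga5, the alpha chain of the main fibronectin receptor, was at 70.3 and 88.5 CPM in PBS, 289 and 360.0 in C40, and 394 and 488 in I60. It rose 4.07-fold (adjusted p = 0.000827) and 5.54-fold (0.000188), in C40 together with Fn1 and in I60 while Fn1 was not called. Itgb3, which pairs with Itgav to bind osteopontin, fibronectin and thrombospondin, had 1 PBS read and rose to 8.84 and 12.7 CPM in I60 (log2 4.45, adjusted p = 0.000434). Itgb6, the epithelial partner of Itgav for fibronectin and tenascin-C, fell 18.8-fold in C40 (0.000218) and 25.1-fold in I60 (6.00e-05).

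Among non-integrin receptors, Stab1, Sdc1 and Sdc4 were called the same way in both lines. Stab1, a scavenger receptor that takes up Sparc, rose 17.5-fold in C40 (adjusted p = 0.000887) and 33.3-fold in I60 (0.000202), beside the rise of Sparc itself. The collagen receptor Ddr2 rose 64.1-fold in C40 (0.00106) and was 15.8-fold lower in I60 than in C40 (0.0104), a call lost without I60 replicate 1 (0.0825). Cd47, a thrombospondin receptor, rose 1.92-fold in C40 (0.0135). Cd44, which binds osteopontin, was at 805 and 795 CPM in PBS, 378 and 656 in C40, and 430.4 and 459 in I60, and did not pass (0.108 and 0.0504). The syndecan Sdc1 fell in both lines, 1.73-fold in C40 (0.018) and 2.96-fold in I60 (0.000668). Its relative Sdc4 also fell in both, 1.76-fold in C40 (limma adjusted p = 0.0112) and 1.51-fold in I60 (0.0299). Thbs3, Cd47, Cd44 and Sdc4 were named outside the rule for named genes, after their values were seen.

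Among proteases that cut these proteins, more were called higher than lower in each treated line. Of 20, 16 were tested; 7 rose in C40 and the other 9 did not pass. Without C40 replicate 1 there was 1 that fell, and without C40 replicate 2 there were 2. In I60, 7 rose and 2 fell, with 3 rising without PBS replicate 2 or I60 replicate 2. Over all tested genes, 11.2% were higher and 9.02% lower in C40, and 13.9% and 13.1% in I60. In each line 3 of the 7 (Mmp2, Adamts10, Adamts4) were below 1 CPM in both PBS libraries and passed the filter only through treated libraries, so the counts and the median log2 differences of 0.95 and 0.85 lean upward. The collagenase Mmp13 was at 4.94 and 1.61 CPM in PBS, 42.0 and 78.8 in C40, and 15 and 28.2 in I60, and rose 17.1-fold in C40 (adjusted p = 0.00237). The gelatinase Mmp2 rose in both lines, 6.21-fold (0.00174) and 7.33-fold (0.000759) on the log2(CPM + 0.5) scale. Adamts10, known for its part in fibrillin microfibrils, had no PBS read. It was 113-fold in C40 and 50.5-fold in I60 above a floor of 3 reads over the PBS group. The aggrecan-cutting Adamts4 rose 23.9-fold in I60 (7.61e-05). Htra1, a secreted serine protease known to cut fibronectin and decorin, was at 881 and 803 CPM in PBS, 564 and 753 in C40, and 175 and 168 in I60, a 4.88-fold fall in I60 (0.000172).

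The genes nearest to each member in pattern over the 6 libraries were mostly not matrix genes. Nearness was the distance between log2(CPM + 0.5) profiles, each centred on its mean, so it includes replicate differences. The nearest genes were Rab6b (distance 0.61) and Rnase4 (0.65) for Fn1, Angptl6 (0.81) and Trim46 (1.13) for Tnc, and Pank1 (0.36) and Mgst2 (0.44) for Sparc. They were Tada3 and Arid5b for Fbn1 (0.27 each), Sh3kbp1 (0.38) and Wnt9a (0.39) for Tgfbi, and Hs3st1 (0.68) and Myb (0.83) for Thbs1. Pak3 (0.31) and Cables1 (0.45) were nearest to Dcn, and Phldb2 (0.32) and Nr4a2 (0.37) to Spp1. Angptl6 shared the gap of Tnc in C40, at 0.707 and 15.9 CPM.

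The nearest tested genes on either side of each member on its chromosome were mostly not called. They lay from 6.07 kb (Atic, by Fn1) to 1558 kb (Trim32, by Tnc) away, and genes that were not tested may lie between. Of the 20 nearest tested genes on either side, 4 were called in any comparison. Over all tested genes, 20.2% were called in C40 against PBS, 27.1% in I60 against PBS and 9.23% in I60 against C40. The share of all genes called in any comparison was not computed, so the count only describes these 20 genes. Lect2, beside Tgfbi, was higher in I60 than in PBS (log2 1.81, adjusted p = 0.002) and than in C40 (1.76, 0.00558), whereas Tgfbi was not called there. Btg1, 857 kb from Dcn, was lower in I60 than in PBS (-0.84, 0.0121) and in C40 (-1.04, 0.0122). Against PBS, Nudt9, 370 kb from Spp1, was higher in C40 (0.71, 0.0184) and Ufm1, 495 kb from Postn, lower in I60 (-0.67, 0.0422). The neighbours of Fn1, Sparc and Thbs1 (Atic and Mreg, Slc36a1 and Atox1, Fam98b and Gpr176) were not called in any comparison.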

How the data were processed

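Total RNA of the 6 libraries was depleted of ribosomal RNA and sequenced from a stranded kit, per the labels' protocols. Reads were aligned with STAR to mm10, per the submitters' processing notes; the sources used here do not give the counting tool, its strand setting or its treatment of reads that map to several places. The authors deposited 1 table of CPM, and the values of each library sum to 1000000. Entrez numbers were matched to symbols for 24374 of 24454 rows. All deposited values were whole multiples of 1 read's CPM within 0.01 reads, so read counts and depth (48113692 to 60260520 reads) were recovered, and 1 read was worth 0.0166 to 0.0208 CPM. Gapdh stood at 1.97 to 6.11 CPM, so genes with many near-identical copies are not measured reliably here.

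The 11524 genes that reached 1 CPM in 2 or more libraries were tested on log2(CPM + 0.5) by limma-trend (limma 3.58.1, R 4.3.3), two-sided, with all 6 libraries fitted together by group, which leaves 3 residual degrees of freedom; p-values were adjusted over all of them. Fold changes are on the log2(CPM + 0.5) scale, which understates those of low genes. edgeR 4.0.16 (quasi-likelihood) and DESeq2 1.42.0 on the recovered reads were alternatives, beside other pseudocounts (0.1 and 1), no filter, a filter of 5 CPM, TMM scaling, a fit of only the groups compared, a replicate block and each library left out. Ratios of pooled reads have exact 95% intervals that, like the floor of 3 reads, cover counting error only. A fold against that floor takes the count of the other group as it stands and leaves out its error.

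The members and the gene lists were chosen with earlier results of these data known. Named genes were the members, the 2 tested genes nearest in pattern to each, their nearest tested neighbours, and up to 3 called genes in each direction per list and comparison, ranked by size of change. Gene positions are from RefSeq, and exon lengths, strands and overlapping genes are from GENCODE M21. The build was GRCm38, of which mm10 is the UCSC name.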

Additional observations from a re-analysis of the deposited data

Results flagged for a closer look

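For 3 genes the response to the 2 treatments differed by the test of the difference itself, which equals I60 against C40 because both are set against the same PBS libraries. The I60 effect minus the C40 effect was -2.56 for Dcn (limma adjusted p = 0.00113), -2.29 for Fn1 (0.0355) and -1.28 for Spp1 (0.0255), on the log2 scale. For Dcn the difference was -2.73 to -2.39 with each library left out in turn. However, Dcn passed the filter, which was not reset in those fits, only through C40, where it was high. Its I60 level rests on 21 reads. The calls for Fn1 and Spp1 were lost with some libraries left out. For Fn1 the higher library of each treated group was more than 2-fold above the lower one.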

How the results depend on the processing

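Over 354 values of single genes under alternatives, 314 kept their direction and side of the threshold, 18 lost a call, 18 gained one and 4 turned direction, all 4 with 1 library left out: Fn1 in I60 against PBS (-0.23 without PBS replicate 1, -0.54 without I60 replicate 2, up to 0.71), Tnc in C40 against PBS (-0.17 without C40 replicate 2, up to 3.04) and Thbs1 in I60 against C40 (0.34 without C40 replicate 1, down to -1.68). Leaving out 1 library gave 549 to 1717 genes higher and 425 to 1750 lower in C40 against PBS (1293 and 1040 with all), 756 to 2120 and 740 to 2070.0 in I60 against PBS (1607 and 1515), and 140.0 to 832 and 249 to 937 in I60 against C40 (404 and 660.0). Members called then numbered 2 to 5 higher and 0 to 1 lower, 1 to 2 and 2 to 3, and 0 to 1 and 1 to 4. A fit left with 1 library in a group assumes that it varies like the others. In I60 against C40, DESeq2 called 1064 genes lower and a fit of only those groups 418; members lower were 1 in that fit and 1 without the filter. In I60 against PBS, members higher were 4 with DESeq2, and 2 with edgeR, with a pseudocount of 0.1 and with only those groups fitted. The cause of these shifts was not tested.

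The replicate numbers are not stated to pair the libraries, and deviations of same-numbered libraries correlated at 0.154 (PBS and C40), 0.105 (PBS and I60) and 0.438 (C40 and I60). With the replicate block, 1552 genes were higher and 1301 lower in C40 against PBS, 1786 and 1708 in I60 against PBS, and 472 and 781 in I60 against C40; members called were 4 and 1, 1 and 2, and 0 and 4, the added one being Tnc (adjusted p = 0.035). Low reads limit Dcn and Postn, with 1 PBS read each, and Thbs2, with 5.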

Other observations

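Fn1 and Tnc were higher in replicate 2 than in replicate 1 of all 3 groups, a course shared by 17.0% of tested genes, and Sparc was lower in replicate 2 of all 3, as were 15.9%. With the replicate block, limma gave adjusted p = 0.000509 for Fn1 in C40 against PBS and 0.000958 in I60 against C40. Glycoproteins below the level for testing went in both directions. Fibulin-5 (Fbln5), an elastic-fibre protein, had 46 reads in PBS and 0 in both treated groups. Taking a floor of 3 reads over the treated group, it was 13.4-fold lower in C40 and 14.1-fold lower in I60. Tenascin-R (Tnr), a relative of Tnc usually linked to neural tissue, had 0 reads in PBS, 7 in C40 and 63 in I60. Its I60 level was 22.9-fold above a floor of 3 reads over the PBS group. Both genes were named after their values were seen.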
